A study of Rattus norvegicus with 180 samples.

Results

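The lungs of 3 rats perfused with saline before the organs were collected (rats 4, 5 and 6) were compared with the other 54 organs of the same rats, over every miRNA of the array. Lung was picked by the organ named in the sample title, which gives 3 of the 180 arrays of the series, set against 162 arrays of other organs. The lungs of rats 1, 2 and 3, which had no treatment, served as a repeat, and from these rats liver, kidney, heart atrium and heart interventricular septum were measured too. All 6 rats were male Sprague-Dawley rats of 10 weeks, and each array held RNA of 1 organ of 1 rat. The SEs and p-values below pool the spread between rats over all organs, 3 rats per organ, so that for a miRNA at the floor in most organs they can be smaller than the spread of the lungs alone would give. They ask whether lung differed from the average organ, not whether lung lay outside the range of organs. A fit to the difference of each lung from the organs of its own rat, in which only the 3 rats give the spread, was added after seeing the data and is called the within-rat fit. With the 55 organ means as the unit, limma called 0 miRNAs and 8 had an unadjusted p under 0.05.

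Lung is made up of conducting airways, lined by ciliated and secretory epithelium, and of alveoli, where thin epithelium meets a dense bed of capillaries, with macrophages, smooth muscle and connective tissue between them. miRNAs are short RNAs that bind target mRNAs, mainly through a seed near their 5′ end, and repress them. miR-34b, miR-34c and miR-449a are known from cells with motile cilia and from male germ cells, miR-126 from endothelium, where it lies in an intron of Egfl7, and the miR-200 family from epithelium. In whole tissue, fewer cells of a type and less RNA per cell cannot be told apart.

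The mature sequences that the results turn on come first, from RefSeq (build GRCr8), in which all 21 names looked up were found. They are written 5′ to 3′ with the seed, bases 2 to 8, in capitals. The miRNAs taken as markers of lung, miR-34b (chr8:60306657-60306679, minus strand) and miR-34c (chr8:60306133-60306155, minus strand), lie within 547 bases. They are shown with 2 relatives that share their seed but come from other chromosomes. miR-34b and miR-34c are identical at 21 of 23 positions, and how far the probes of one also bind the other was not tested.
miR-34b: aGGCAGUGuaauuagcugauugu
miR-34c: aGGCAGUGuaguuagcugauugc
miR-449a: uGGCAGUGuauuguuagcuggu
miR-34a: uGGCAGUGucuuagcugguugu

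The next pair is miR-126 (chr3:29813219-29813240, plus strand) and miR-126*, the other arm of its hairpin (chr3:29813182-29813202, plus strand), shown because lung was the first of 55 organs in both.
miR-126: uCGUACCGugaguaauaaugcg
miR-126*: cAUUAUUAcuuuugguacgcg

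The last set comes from a stretch of 5235 bases on chromosome X (chrX:137720985-137726219, minus strand) from which miR-322 and 6 other called entries were higher in lung, put together as a set after their values had been seen. miR-322 has the same seed as miR-195 and miR-497, which lie within 358 bases on chromosome 10, and the seed of miR-503 differs from it in its last letter.
miR-322: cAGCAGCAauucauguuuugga
miR-503: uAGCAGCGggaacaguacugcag
miR-542-3p: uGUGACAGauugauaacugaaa
miR-542-5p: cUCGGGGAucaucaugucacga
miR-450a: uUUUGCGAuguguuccuaaugu
miR-195: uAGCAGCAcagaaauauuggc
miR-497: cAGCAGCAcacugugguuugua

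Values are scaled signals in arbitrary units with a floor of 10.8, and differences are on the log2 scale, where 1 is a fold of 2. A miRNA was detected on an array where over 50% of its spots stood well above background, which held for 169 to 193 miRNAs on the 6 lung arrays and for 86 to 244 over all arrays. Before scaling, the 75th percentile of signal was higher in lung than in any other organ (mean 5565, against a median of 2027 over organs), and it was 68.0 to 121 in pancreas. After scaling, the dimmest detected miRNA stood at 3.35 to 4.59 on the perfused lung arrays and at 115 to 273 in pancreas. Of 717 miRNAs on the array 164 were detected on all 3 perfused lungs, and 515 on none of the 6 lungs. Of the 164, 12 lay at the floor on all 3, so detected and above the floor are not the same here.

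Of 345 miRNAs tested, 32 were higher in perfused lung than in the mean of 54 organs (9.28% of those tested) and 52 were lower (15.1%), at an adjusted p under 0.05 in limma and a difference of at least 1. The median difference over all 345 was -0.27. The split between directions moved with the scaling, to 93 higher and 29 lower with the 75th percentile taken over all miRNAs, and to 48 and 36 with quantile normalization, and the 32 higher calls were among those of both. Normexp background correction left 7 of the 32, which were miR-126, miR-130a, miR-195, miR-30a, miR-322, miR-34b_v15.0 and miR-451, and ended every other higher call, and it left 27 of the 52 lower ones. Without the organs of the nervous system 27 were higher, 26 of the 32 among them, and 41 lower, 34 of the 52 among them, and miR-141, miR-142-3p, miR-200a, miR-200b, miR-375 and miR-429 were no longer called higher. The within-rat fit called 31 higher and 52 lower, and of the calls it lost miR-451 alone. Lung was among the first 5 organs for 17 of the 32 and beyond the first 10 for 10.

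miR-34b and miR-34c, miRNAs of ciliated cells, stood furthest above the organ average. miR-34b was at 283, 127 and 246 in the perfused lungs of rats 4, 5 and 6 and at 244, 173 and 389 in the lungs of rats 1, 2 and 3. On the 162 arrays of other organs its lowest and median signals were both 10.8, the floor, and the highest was 15282. All 6 lungs were far above the median array, the lung of rat 5 least and that of rat 3 most. The difference from the 54 organs was 3.47 ± 0.16 (SE, adjusted p 1.1e-40, n = 3), a fold of 11.1 on this floored scale, with an SE of 0.32 (adjusted p 0.003) in the within-rat fit, and 3.93, 2.71 and 3.77 for each lung against the organs of its own rat. The probes listed as miR-34b_v15.0 differed by 3.70 ± 0.18. miR-34c was at 209, 109 and 179.6 in the perfused lungs and 189, 145 and 289 in the others, in the same order of rats within each set, and differed by 3.14 ± 0.16 (adjusted p 2.3e-35). With normexp the differences were 0.88 (adjusted p 0.0045) for miR-34b and 0.55 (adjusted p 0.083) for miR-34c, which ends both calls.

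Lung was in place 4 for rno-miR-34b (219 ± 81.4, SD, n = 3). Testicle (13298 ± 1968), epididymis (473 ± 62.0) and trachea (307 ± 17.5) were above it, and cerebrum thalamus (119.9 ± 38.7) came next. Every perfused lung lay below every epididymis and trachea array, while lung and thalamus overlapped. The order of the first 5 organs was the same for rno-miR-34c, where lung (166 ± 51.3) and thalamus (156 ± 56.4) overlapped as well. miR-34b was -1.18 against epididymis (exact two-sided permutation p 0.1, the smallest that 3 against 3 allows). Outside lung it was detected on all 3 arrays in 11 organs and on none in 34.

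rno-miR-449a, a relative from another locus, was at 82.6, 48.4 and 81.9 in the perfused lungs and 80.2, 65.2 and 132 in the others. It was detected on no array in 49 of the 54 organs, so that lung was one of few organs in which it was detected. Detection limits differed between organs. In pancreas the dimmest detected signal was 115 to 273, so a level like that of lung would be missed there. The difference was 2.31 ± 0.073 (adjusted p 4.3e-55), with an SE of 0.21 (adjusted p 0.003) in the within-rat fit, and lung was again in place 4, after testicle (6696 ± 232), trachea (154 ± 42.7) and bone marrow (90.4 ± 30.2), the last of which overlapped it. With normexp the difference was -0.26. Among perfused lungs rat 5 had the lowest miR-34b, miR-34c and miR-449a. miR-34a, the widely expressed relative, was at 741, 668 and 732 and differed by 1.52 ± 0.21, with lung in place 9. Of 9 array entries in the ciliated list, 5 were tested and 4 were higher (beside 9.28% of all tested), with a median of 3.14. The 4 were miR-34b, miR-34b_v15.0, miR-34c and miR-449a. They are not independent entries, and miR-34b and miR-34c had been taken as markers of lung, so the count is no test of the list. The exception, miR-34b*, was detected on all 3 perfused lungs but lay at 10.8, 10.8 and 10.9, next to the floor, and the remaining entries, miR-34c* among them, were detected on none.

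rno-miR-126 set lung apart from every organ. It was at 4295, 3719 and 4975 in the perfused lungs and 4281, 4417 and 4129 in the others. On the 162 arrays of other organs the lowest was 48.8, the median 574 and the highest 3626. All 6 lungs lay above every other array of the perfused rats. The difference was 2.77 ± 0.21 (adjusted p 9.2e-24), a fold of 6.81, and 2.72, 2.51 and 3.07 in rats 4, 5 and 6. Brown adipose tissue followed (3416 ± 198), then heart atrium (2681 ± 159) and heart interventricular septum (2452 ± 235). The gap to brown adipose tissue was 0.33 (exact two-sided permutation p 0.1).

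rno-miR-126* was at 209, 166 and 343 in the perfused lungs and 217, 206 and 192 in the others, with rat 6 highest. It differed by 2.53 ± 0.30 (adjusted p 1.8e-12). Lung (239 ± 92.3) was first and brown adipose tissue (181 ± 35.2) second, and their arrays overlapped. The arms of miR-126 were the only miRNAs with lung first and detection on all 3 lungs, which put lung in place 25 of 55 organs by that count, while pancreas led with 47. Lung was first for both arms in each of the 3 rats alone. With the 75th percentile over all miRNAs lung was first for 9 miRNAs and in the deposited table for 4, both arms included, and with normexp for miR-126 alone.

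**Figure D1:**
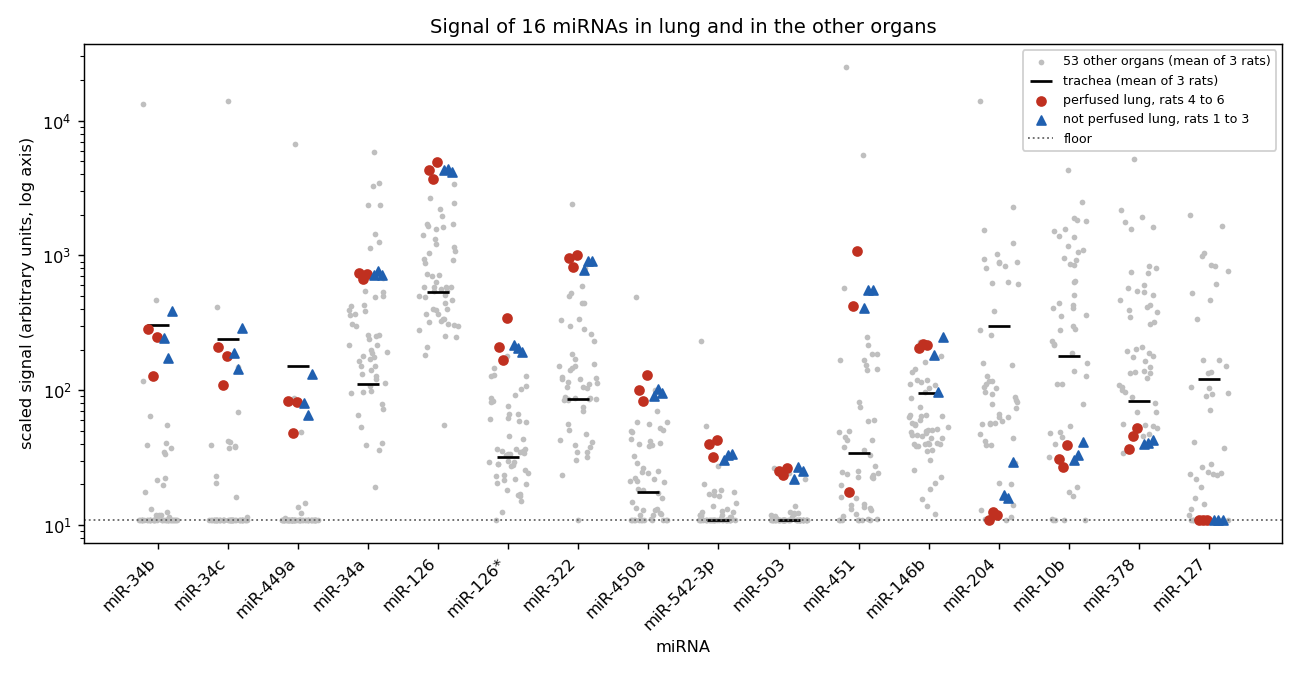
Scaled signal (log axis, arbitrary units) of 16 miRNAs, with the 3 perfused lungs, the 3 lungs that were not perfused, trachea and the other 53 organs (means of 3 rats) marked as in the legend, and the floor dotted. Lung lies above the other organs for miR-126 and in place 4 for miR-34b, and for miR-451 the perfused lungs spread from 17.5 to 1079.7.

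The called products of the X-linked stretch had lung among the first 3 organs. rno-miR-322, the rodent counterpart of human miR-424, was at 953, 823 and 1002 in the perfused lungs and 774, 911 and 914 in the others. The median array of other organs was at 110 and the highest, of adrenal gland, at 2666. Only 4 arrays of other organs lay above the lowest lung. The difference was 2.98 ± 0.19 (adjusted p 7.2e-29), a fold of 7.91. Adrenal gland was first (2407 ± 311), lung second (926 ± 92.4) and brown adipose tissue next (806 ± 78.6), with lung and brown adipose tissue overlapping. miR-322*, its other arm, was at 50.2, 39.5 and 52.3 and differed by 1.65 ± 0.12, with lung second, though it was detected on only 2 of the 3 lungs.

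rno-miR-450a was at 99.7, 82.9 and 129.6 (2.18 ± 0.18), second after adrenal gland (515 ± 164) and overlapping testicle (100.1 ± 9.41). miR-542-3p was at 40.0, 31.9 and 43.0 (1.52 ± 0.10) and miR-542-5p, from the same hairpin, at 42.0, 35.9 and 36.6 (1.39 ± 0.082), with lung after adrenal gland and testicle in both. rno-miR-503 was at 24.9, 23.6 and 26.3 (1.11 ± 0.084), within the range of brown adipose tissue (26.5 ± 2.83) and adrenal gland (25.1 ± 17.4). Of 11 entries of the stretch on the array, 8 were tested and 7 were higher (87.5%, beside 9.28% of all tested). The exception was miR-351 (-0.023), one of 4 entries detected on none of the 6 lungs. With normexp miR-322 alone of the 7 stayed called, and with a floor 4 times as high miR-322 and miR-450a did. Under the higher floor miR-322* differed by 0.12, and miR-450a_v15.0, miR-542-3p and miR-542-5p by -0.026, -0.051 and -0.047. miR-450a_v15.0 also came under the limit of 1 without the lung of rat 6 (0.99).

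In the list of the miR-15 and miR-16 family, which holds miR-322, 3 of 5 tested members were higher (beside 9.28% of all tested). miR-195 was at 1158, 1032 and 1154 (1.40 ± 0.17) and miR-497 at 830, 741 and 822 (1.20 ± 0.16), and lung was in place 5 for both, after cerebellum, skin, white adipose tissue and musculus soleus. miR-16 (0.13 ± 0.12) and miR-15b (-0.25 ± 0.16), the widely expressed members, were not called. In the miR-30 list 2 of 10 were higher (beside 9.28%), miR-30a (1337 ± 133, difference 1.26) and its other arm miR-30a* (1.15), while miR-30e was at -0.84, in place 45. In the miR-130 list rno-miR-130a was the 1 call of 3 (beside 9.28%), at 1060.3, 1067 and 1169 (1.45 ± 0.14), with lung after kidney (1341 ± 136) and eyeball (1129.9 ± 82.8).

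Of 10 entries of the miR-200 family, miRNAs of epithelium, 6 were detected on all 3 perfused lungs and 5 were higher (beside 9.28% of all tested), while the lowest differed by -0.80. Without the nervous system only rno-miR-200c_v15.0 of the 5 stayed called, with miR-141, miR-200a, miR-200b and miR-429 at 0.59, 0.54, 0.47 and 0.42. The probes listed as miR-200c_v15.0 were at 678, 644 and 678 (1.92 ± 0.29), and lung was in place 21, with ventral prostate first (7905 ± 1771). miR-200b was at 462, 413 and 502.7 (1.38 ± 0.35), in place 24. It was detected on all 3 arrays in 29 of the other organs and on none in 23. With normexp miR-141, miR-200a, miR-200b and miR-429 were -0.24, -0.060, -0.030 and -0.34.

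Among miRNAs of blood cells, 2 of 7 tested leukocyte entries were higher (beside 9.28% of all tested), and 6 were detected on all 3 lungs. rno-miR-146b, which is induced in inflammation, was at 206, 218 and 217 in the perfused lungs with little spread and at 182, 96.6 and 249 in the others. It differed by 1.98 ± 0.16 (adjusted p 2.0e-21), and lung was second to cecum (235 ± 65.2), whose arrays it overlapped. miR-142-3p, a miRNA of blood-forming cells, was at 375, 502 and 658 (1.15 ± 0.29), and without the lung of rat 6 its difference was 0.95, under the limit of 1.

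miR-451, the miRNA of red blood cells, varied most among the perfused lungs. It was at 17.5, 422 and 1079.7 in rats 4, 5 and 6 and at 405, 559 and 558 in rats 1, 2 and 3. Only the lung of rat 4 lay below the median array of other organs (28.1). The difference was 2.27, with a pooled SE of 0.55 (adjusted p 0.00018) but an SE of 1.63 (adjusted p 0.28) in the within-rat fit, which ends the call. It was -1.54, 3.25 and 5.11 in the single rats, 4.03 without the lung of rat 4 and 1.06 without that of rat 6, where it was no longer called. miR-144, from the same locus, was at 10.8, 11.0 and 42.8. The summed signal of the leukocyte list was 1459, 1687 and 1925 in the same lungs, a narrower range in the same order. Of 3 tested erythroid entries miR-451 was the 1 called with the pooled spread, beside 9.28% of all tested.

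Of 6 smooth muscle entries 2 were detected on all 3 perfused lungs, and miR-143 was at 2768 ± 456 (difference 0.76, not called). No member of the miR-17-92 list (9 tested, all detected, median -0.060) or the miR-29 list (4, -0.47) was called, beside 9.28% of all tested called higher and 15.1% lower. Of 6 neuroendocrine entries 2 were detected on all 3 lungs, miR-375, which was higher (1.18 ± 0.26) but not called without the nervous system (0.69), and miR-7a, which was lower (-1.63 ± 0.17). In the mesenchymal list miR-10b was the 1 lower call of 5 (beside 15.1%). miR-10a-5p, a relative of miR-10b picked after its values were seen, was higher (1.51 ± 0.21).

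**Figure D2:**
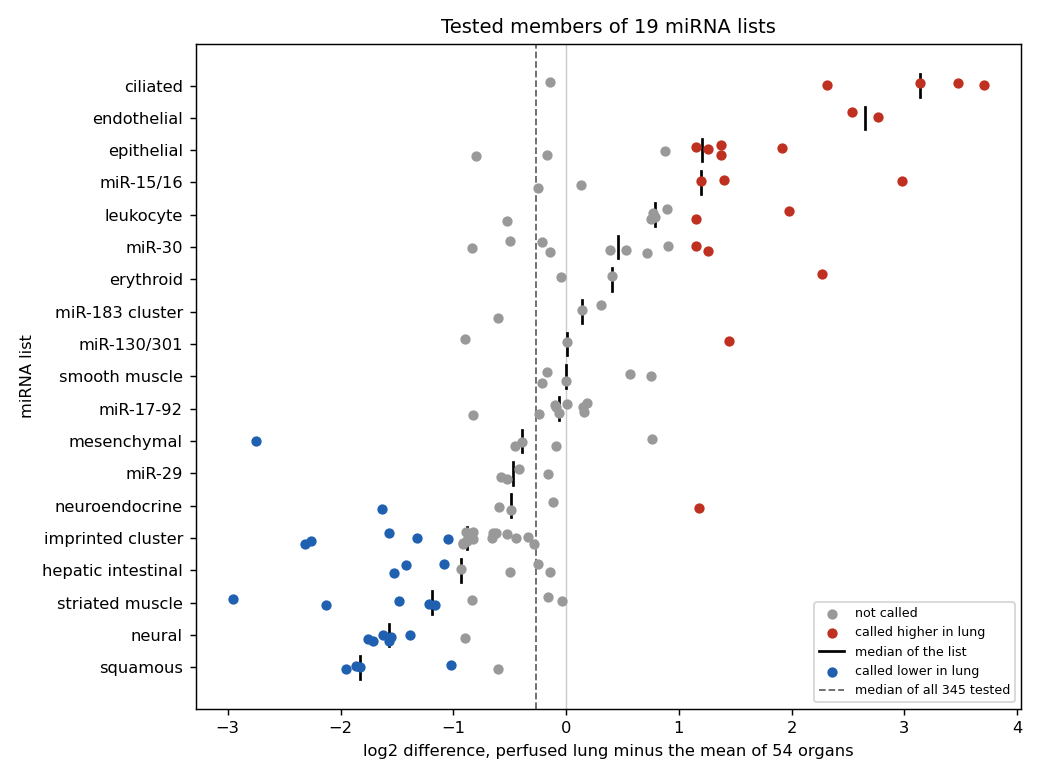
Log2 difference of perfused lung minus the mean of 54 organs for the tested members of 19 miRNA lists, 1 point per miRNA, coloured by call as in the legend, with each list's median and the median of all tested (-0.27). The ciliated and endothelial lists have the highest medians (3.14 and 2.65). No member of the imprinted list was detected on a perfused lung, beside 515 of all 717 entries detected on none of the 6 lungs.

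On the lower side miR-204, known from the eye and choroid plexus, differed most. It was at 10.9, 12.6 and 11.9 in the perfused lungs and 16.6, 15.7 and 29.3 in the others, while the median array of other organs was at 98.4 and the highest, of eyeball, at 15129. The difference was -3.51 ± 0.26 (adjusted p 4.3e-24), with lung in place 52. miR-10b was at 30.8, 26.9 and 39.5, against a median of 256 (-2.75 ± 0.22). miR-378, which lies in the gene of the metabolic coactivator Ppargc1b, was at 36.5, 46.0 and 52.1, against a median of 178 (-2.36 ± 0.20), with lung in place 54 and brown adipose tissue first.

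Many lower calls were miRNAs at or near the floor in lung. In 21 of the 52 the miRNA was detected on no perfused lung, and in 32 all perfused lungs were at the floor. Entries that only other organs detect entered the test through those organs, so their calls are not counted by list. Of 13 striated muscle entries 10 were detected on no perfused lung. Over the whole array 515 of 717 entries were detected on none of the 6 lungs. This count, and that of the neural list below, lie near that share. miR-1 was at 12.3, 10.8 and 10.8 in lung, at the floor in rats 5 and 6, and at a mean of 14798 in heart atrium, and miR-133b was at 78.4, 35.4 and 58.4 (-2.13 ± 0.72). Of 9 neural entries 6 were detected on none, and miR-9 and miR-124 among them were 3.08-fold and 2.93-fold lower than the organ average on the floored scale. Organs below the floor enter that average at the floor, so these folds are not lower limits. Where a fold against a single organ is given below as at least a value, a group with no detection is set to the floor or, if higher, to the dimmest detected signal of its arrays. Without the nervous system miR-9 and miR-124 differed by -0.40 and -0.25, which ends both calls. Of 5 squamous entries 3 were detected on all 3 lungs, and of 8 hepatic and intestinal ones 2, with miR-192 at 17.9 ± 0.555.

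None of the 21 entries of the imprinted Dlk1-Dio3 list was detected on a perfused lung, beside 515 of all 717 entries detected on none of the 6 lungs. miR-127, which was detected on all 3 arrays in 27 other organs, was 4.96-fold lower in lung than the organ average on the floored scale. miR-434 was 4.80-fold lower, and these folds are not lower limits either. On the log2 scale these were -2.31 and -2.26, and -1.52 and -1.41 without the nervous system.

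For 13 of the 52 lower calls pancreas was the highest organ. Over all 717 miRNAs pancreas was first, with detection on its 3 arrays, for 47, more than any other organ. Lung was the last of 55 organs for miR-494 (12.6, 15.6 and 20.6, -2.74 ± 0.51) and miR-1224 (52.3, 62.4 and 53.1, -2.43 ± 0.49), and in place 54 for miR-494_v15.0 (-2.64 ± 0.56). miR-3584-5p was called lower too, lay at the floor on all 3 lungs and was detected on 2 of them. Pancreas had the lowest 75th percentile of signal before scaling and lung the highest, and the part of this in these differences was not tested. Without pancreas, an alternative chosen after seeing the data, 32 miRNAs were higher and 50 lower.

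The 6 lungs were alike. Over the 345 miRNAs the correlation of log2 signal between pairs of lungs ran from 0.988 to 0.998, as a description over miRNAs measured on the same arrays. Among 179 miRNAs detected on at least 2 perfused lungs the median SD was 0.13 on the log2 scale, and 9 were over 0.5. The widest were miR-451 (3.12), miR-144 (1.14), miR-34b (0.62), miR-133b (0.58) and miR-34b_v15.0 (0.58). The 8 entries with the highest signal, which ranks probes and not the amounts of miRNAs, were let-7a (5056 ± 399), let-7f (4641 ± 651), miR-126 (4329.8 ± 629), miR-23a (4256 ± 553), let-7c (4041 ± 214), miR-26a (3713 ± 513), let-7b (3141 ± 206) and miR-23b (2883 ± 158). Of them only miR-126 was called higher.

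The lungs that were not perfused gave 35 miRNAs higher (10.1%) and 49 lower (14.2%) than the 54 organs. Both comparisons share these organs, so their values are only set side by side. In perfused and not perfused lungs miR-34b differed by 3.47 and 3.77, miR-126 by 2.77 and 2.76, and miR-322 by 2.98 and 2.89. miR-451 differed by 2.27 and 3.60, and miR-204 by -3.51 and -2.76. Directly between the 2 sets of lungs miR-34b differed by -0.30 (exact two-sided permutation p 0.7).

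A repeat with its own controls was possible against liver, kidney, heart atrium and heart interventricular septum, taken from both sets of rats. In perfused rats 41 of 191 tested miRNAs were higher in lung (21.5%) and 28 lower (14.7%). In rats that were not perfused 40 were higher (20.9%) and 28 lower (14.7%). The lists shared 39 higher calls, 95.1% of the first and 97.5% of the second, and 27 lower calls, 96.4% of each. In perfused and not perfused rats miR-34b differed by 4.26 ± 0.17 and 4.55 ± 0.17, miR-126 by 1.18 ± 0.12 and 1.22 ± 0.12, and miR-322 by 1.68 ± 0.14 and 1.60 ± 0.14. All 7 tested entries of the X-linked stretch were higher in both. The stretch was put together as a set after high values in lung had been seen, and the perfused lungs are the same here. An entry was tested only if every array of some group, lung among them, detected it. Both steps favour entries that are high in lung, so this count is no test of the set. Within the slide of each perfused lung, against liver, kidney, atrium, septum and skin of that rat, miR-34b differed by 4.71, 3.55 and 4.51 and miR-126 by 1.45, 1.36 and 1.76.

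miR-451 differed by 2.15 ± 0.74 (adjusted p 0.011) in perfused rats and 0.53 ± 0.74 (adjusted p 0.53) in the others, with the spread pooled over organs. The interaction of perfusion with lung was called for 0 of 191 miRNAs (0%) in limma, with 7 at an unadjusted p under 0.05. Without the perfused lung of rat 4 it was called for miR-451 (3.38, adjusted p 0.017), and without the not perfused lung of rat 2 for miR-1, which lay at the floor in that lung and in those of rats 5 and 6 (-0.99, adjusted p 1.4e-06).

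**Figure D3:**
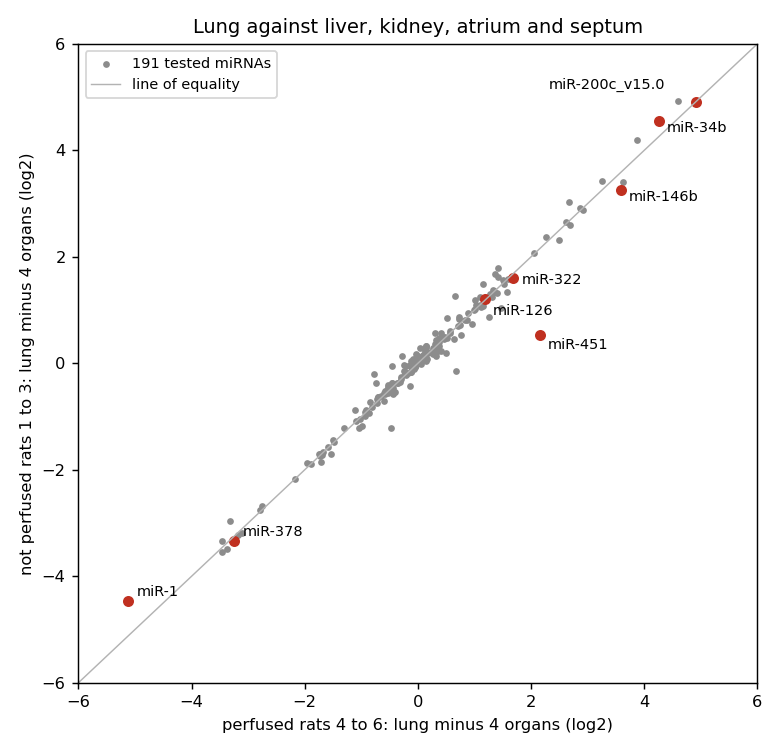
Log2 difference of lung minus the mean of liver, kidney, heart atrium and septum for 191 miRNAs in perfused rats (x axis) and in rats that were not perfused (y axis), with the line of equality. Of the higher calls 39 were shared by both sets of rats, and miR-451 lies off the line (2.15 and 0.53).

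Trachea, the other airway organ, had the profile most like that of lung, with a correlation of log2 means of 0.907 over 345 miRNAs, followed by thyroid (0.905) and white adipose tissue (0.894). Against trachea 31 miRNAs were higher in lung (8.99%) and 28 lower (8.12%). The within-rat fit called 25 higher and 24 lower, and among the calls it ended were those of miR-449a, miR-126*, miR-450a_v15.0, miR-30b-5p, miR-451 and miR-1. Of the ciliated list miR-449a was lower in lung, at 82.6, 48.4 and 81.9 against 197, 154 and 111 in trachea (-1.12 ± 0.10, adjusted p 5.7e-18, and 0.23 in the within-rat fit), with no overlap. miR-34b (-0.57 ± 0.22, adjusted p 0.042) and miR-34c (-0.58 ± 0.23, adjusted p 0.048) stayed under the limit of 1, did not pass in the within-rat fit (adjusted p 0.6 and 0.53), and their sign turned with the 75th percentile over all miRNAs (0.14 and 0.13).

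The largest differences in favour of lung were those of miR-322 and miR-126. miR-322 was at 83.2, 82.0 and 93.4 in trachea (3.42 ± 0.26, adjusted p 1.1e-22). miR-126 was at 512, 549 and 532 (3.02 ± 0.29, adjusted p 4.5e-17) and miR-126* at 37.7, 36.7 and 23.0 (2.85 ± 0.43, adjusted p 0.09 in the within-rat fit). The 7 entries of the X-linked stretch that were called against the 54 organs were higher here too (beside 8.99% of all tested). Both comparisons use the same 3 lungs, so this is not separate evidence for the set. Of these entries miR-503, miR-542-3p and miR-542-5p, detected on no trachea array, were at least 2.30-fold, 3.51-fold and 3.52-fold higher. miR-34a was at 101, 112 and 119 in trachea (2.69 ± 0.30), the opposite side from miR-449a with the same seed. miR-3588, detected on no trachea array, was at 73.7, 80.4 and 44.1 in lung, at least 5.90-fold higher. In the miR-30 list 5 of 10 were higher, miR-30a by 1.60, in the leukocyte list 3 of 7, and in the miR-17-92 list 3 of 9, beside 8.99% of all tested.

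The largest differences in favour of trachea were those of miR-140, the miRNA of cartilage, and its other arm. miR-140 was at 4653, 4122 and 4607 in trachea and 119, 117 and 127 in lung (-5.20 ± 0.20, adjusted p 1.4e-47), and miR-140* differed by -5.39 ± 0.20. miR-205_v15.0, of stratified epithelium, was at 461, 439.7 and 322.1 in trachea and 14.0, 10.8 and 15.2 in lung (-4.93 ± 0.28). miR-204 was at 383, 199 and 346 in trachea (-4.66 ± 0.36), and miR-455* differed by -4.55 ± 0.27. All 5 tested mesenchymal entries were lower in lung (beside 8.12% of all tested), miR-199a-5p (-3.02 ± 0.38) and miR-214 (-2.94 ± 0.36) most. Of the imprinted list miR-127 was at least 11.2-fold higher in trachea. miR-1 was at 37.6, 24.1 and 599 in trachea, with rat 6 far above the others, and its call did not hold in the within-rat fit (adjusted p 0.45).

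In the miR-200 family miR-200a (-1.62 ± 0.51), miR-200b (-1.47 ± 0.49) and miR-429 (-1.13 ± 0.41), which share a cluster, were lower in lung than in trachea (adjusted p 0.0083, 0.016 and 0.027). miR-141 (-0.15 ± 0.39) and miR-200c_v15.0 (-0.35 ± 0.40), from the other cluster, did not pass the test, and the difference between the clusters was not tested.

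**Figure D4:**
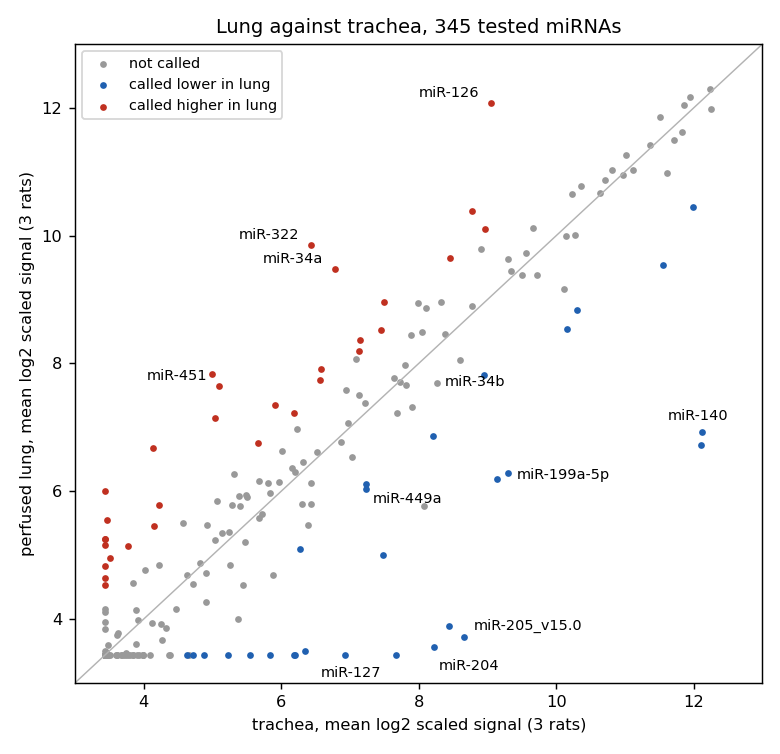
Mean log2 scaled signal of 345 miRNAs in trachea (x axis) and perfused lung (y axis), 3 rats each, coloured by call. miR-322 and miR-126 lie furthest above the line of equality (3.42 and 3.02) and miR-140* and miR-140 furthest below it (-5.39 and -5.20).

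Thyroid was the next organ in likeness, chosen on these same values. Against it 24 miRNAs were higher in lung (6.96%) and 38 lower (11%). miR-34b, miR-34c and miR-449a lay at the floor on all 3 thyroid arrays, and were at least 17.3-fold, 13.4-fold and 5.76-fold higher in lung (adjusted p 1.8e-35, 4.4e-31 and 9.3e-47, and 0.028, 0.027 and 0.034 in the within-rat fit). miR-322 (2.92 ± 0.26) and miR-142-3p (2.52 ± 0.40) were higher in lung as well, the latter without passing in the within-rat fit (adjusted p 0.095), which called 18 higher and 26 lower. On the lower side were miR-204, at 888 ± 62.5 in thyroid (-6.24 ± 0.36), and miR-335 (-4.79 ± 0.28).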

How the data were processed

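Total RNA of each organ was labelled with Cy3 and hybridised to 1-colour rat miRNA arrays, 1 array per organ and rat. The deposited values are intensities, background-subtracted processed signals per spot, which the authors extracted with Agilent Feature Extraction 10.7.3 (per the labels). Spots called outliers (1.63 to 6.42% of spots per array) were left out, spots were averaged per probe and probes per miRNA, and each array was scaled to a 75th percentile of 2118 over the 37 miRNAs detected on all arrays. Signals below 10.8 were then raised to that floor and log2 was taken. No spot was saturated. A second deposited table with the authors' processed values held 715 of the 717 miRNAs and was used as an alternative.

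Groups were fitted with limma 3.58.1 in R 4.3.3, 1 term per organ and condition, over miRNAs that every array of some group detected, with Benjamini-Hochberg adjustment. A miRNA was called at an adjusted p under 0.05 and a log2 difference of at least 1. Exact permutation tests used scipy 1.17.1. The fit was tested on simulated data with independent normal noise, the same SD for a miRNA in every organ and no floor. That test does not cover miRNAs at the floor in most organs. The arrays lie on 23 slides and 3 scan days, and each perfused lung shared a slide with liver, kidney, heart atrium, septum and skin of its rat, among others. A rat number marks 1 animal, so it pairs organs: residuals correlated by 0.050 on average within a rat (0.17 on the same slide and 0.032 on other slides) and -0.025 between rats, and those of the 3 lungs with their rat's other arrays by -0.059, 0.0081 and -0.073. On 8 arrays the labels give conflicting rat numbers, and the title was followed. The members and miRNA lists were chosen with earlier results of these data known. Named miRNAs are the miR-34b and miR-34c entries, the 12 highest and 10 lowest calls (lower ones if detected in at least 10 organs), those with lung first, the 8 brightest, the 5 most variable, the 5 largest each way against trachea, list members and interaction calls, and others were chosen after their values were seen. Alternatives were other scalings, normexp (offset 50 added before scaling, on the median spot and background signals), floors, filters, blocks for rat or slide, left-out lungs and organ sets. Leaving out pancreas or the intestine, and the within-rat fit, were chosen after seeing the data.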

Additional observations from a re-analysis of the deposited data

How the results depend on the processing

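The scaling, the background correction and the floor all moved the counts. With the 75th percentile over all miRNAs, 93 miRNAs were higher and 29 lower in perfused lung than in the 54 organs, 78 and 29 in not perfused lung, 66 were higher than in trachea and 43 than in thyroid, lung was first for 9, and miR-34b and miR-34c against trachea were 0.14 and 0.13. The median difference from the 54 organs was then -0.053, against -0.27 in the reported setting. The deposited table gave 52 higher, with lung first for 4. With normexp 7 were higher than in the 54 organs, 8 higher and 32 lower in not perfused lung, 12 and 8 higher than in 4 organs in perfused and not perfused rats, 11 higher and 16 lower than in trachea, 9 higher than in thyroid, lung was first for 1, and miR-34b and miR-34c were 0.88 and 0.55. A floor 4 times as high gave 18 and 21, 19 and 20 in not perfused lung, 26 and 17 against 4 organs, 17 lower in not perfused rats, 19 and 18 against trachea and 22 lower than in thyroid. A floor of 0.25 times the height gave 104, 103 and 58 lower against the 54 organs in perfused and not perfused lung and against thyroid. Only miRNAs detected on at least 50% of arrays gave 21 and 30, 23 and 27, 25 and 25 higher against 4 organs, and 14 higher than in thyroid, since fewer miRNAs were tested. With organ means as the unit 0 were higher and 0 lower, and miR-34b (3.47) and miR-34c (3.14) had an adjusted p of 0.95. The within-rat fit ended the call of miR-451 against the 54 organs. Within slides 35 were higher, 24 of the 32 among them, and 33 lower, 25 of the 52 among them. Against the median organ miR-34b was 4.26 and miR-34c 3.88. Signs turned for miR-34b* (0.42, 0.29, 0.082, 1.25 and 0.00428 with the 75th percentile, quantile normalization, the deposited table, the low floor and within slides). With normexp they turned for miR-449a (-0.26), miR-322* (-0.46), miR-141 (-0.24), miR-200a (-0.060), miR-200b (-0.030), miR-218 (-0.057), miR-375 (-0.52), miR-429 (-0.34), miR-450a_v15.0 (-0.42), miR-503 (-0.42), miR-542-3p (-0.46), miR-542-5p (-0.46) and miR-99b (-0.12). With the high floor they turned for miR-375 (-0.030), miR-450a_v15.0 (-0.026), miR-503 (-0.000385), miR-542-3p (-0.051) and miR-542-5p (-0.047). Normexp added its offset of 50 before scaling, which raises dim signals less on lung than on arrays with a lower 75th percentile. The median difference from the 54 organs was then -0.49. Apart from fewer miRNAs or units, what part this and the other settings had in these changes was not tested. With the rat as a replicate block, 32 were higher and 52 lower, 29 instead of 28 were lower than in 4 organs in not perfused rats, and no call of a named miRNA was lost. Leaving out 1 lung gave 29 to 32 higher and 48 to 52 lower than the 54 organs, 32 to 35 and 47 to 48 in not perfused lung, 37 to 42 and 28 to 31 against 4 organs, 38 to 42 and 28 to 31 in not perfused rats, 28 to 33 and 24 to 28 against trachea, 23 to 26 and 36 to 40 against thyroid, and 0 to 1 interactions. miR-34b was then 3.25 to 3.82 and miR-34c 2.94 to 3.41, and against trachea -0.79 to -0.22 and -0.77 to -0.30. Over all alternatives, of the counts and miR-34 values 258 kept their direction and call or stayed within 1.5 times, 45 moved, 4 lost a call and 2 turned, and of single miRNAs 990 kept direction and call status, 82 lost a call (69 higher and 13 lower), 25 moved and 23 turned. The number of arrays, 3 per organ, limits the precision.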
